A study of Mus musculus with 37 samples.

Results

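The transcripts of 9 receptors were followed here in uterine natural killer (uNK) cells: Cd226, which encodes DNAM-1, Tigit, Cd96, Crtam and Pvrig, whose products bind nectins and nectin-like proteins, set beside the checkpoint receptor genes Lag3, Havcr2, Pdcd1 and Ctla4. The genes were chosen by name, with earlier results of these data known, as 9 of the 53700 genes counted in each library. They were matched by Ensembl identifier. RNA was sequenced from 37 libraries of sorted uNK cells from the pregnant uterus of C57BL6 mice at gestation day 9.5 to 10.5. Cells were gated as live CD45+ NKp46+ cells negative for CD3, CD4 and CD8, among other markers, and not high for CD11b, and then split by the inhibitory receptors Ly49C/I and NKG2A, through which NK cells are educated by self MHC class I. In WT mice 9 libraries held cells lacking both receptors (uneducated), 9 held NKG2A+ Ly49C/I- cells and 6 held Ly49C/I+ NKG2A- cells. In NKG2A KO mice, labelled as the same strain, 8 libraries held uneducated cells and 5 held Ly49C/I+ cells. Cells with both receptors were not collected. The NKG2A antibody was listed as one that also recognises NKG2C and NKG2E. The labels do not say which libraries came from separate animals, so the p-values below measure the spread between libraries.

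DNAM-1 is an activating receptor that binds CD155 (encoded by Pvr) and CD112 (encoded by Nectin2), and it works together with the integrin LFA-1. TIGIT and CD96 bind CD155 as well, TIGIT as an inhibitory receptor, while PVRIG is an inhibitory receptor for CD112 and CRTAM binds the nectin-like protein encoded by Cadm1. The other checkpoint receptors restrain lymphocytes through unrelated ligands: PD-1 (Pdcd1) binds PD-L1 and PD-L2, CTLA-4 competes with CD28 for CD80 and CD86, TIM-3 (Havcr2) binds galectin-9 among others, and LAG-3 binds MHC class II and other ligands. DNAM-1 on NK cells has been linked to education by inhibitory receptors.

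The genes lie on 7 chromosomes (GRCm38, GENCODE annotation). Cd226, on the plus strand of a chromosome that no other member shares, is placed beside its values below. Tigit, at chr16:43648867-43664146, and Cd96, at chr16:46035657-46120251, share a chromosome and the minus strand. Crtam lies at chr9:40969691-41004628 on the minus strand and Pvrig at chr5:138341961-138343557 on the plus strand. Lag3 lies at chr6:124904361-124911705 on the minus strand and Havcr2 at chr11:46454935-46481255 on the plus strand. Pdcd1, at chr1:94038305-94052553 on the minus strand, and Ctla4, at chr1:60887000-60915832 on the plus strand, share chromosome 1. No exon of the 9 genes overlapped an exon of another annotated gene. Of the 50-base stretches in their transcripts, 0% to 0.87% also occurred in transcripts of other genes, except in Tigit, where 4.37% did.

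The promoter sequences of the members that passed the test in at least 1 comparison and that the RefSeq promoter table (GRCm38.p6) holds are shown, since these genes moved in different directions. Each run is the 250 bases before the start in that table, 5′ to 3′ on the strand of the gene. In the GENCODE annotation, 3 bases of the Cd96 run lie in a Cd96 exon. The table holds no entry for Cd226. Capitals mark matches, on either strand, to the letters GGTGTG (T-box), GGAAGT (ETS), TGTGGT (RUNX), TGANTCA (AP-1) and ACGTG (HIF). The Havcr2 run is chr11:46454681-46454930 (+), the Ctla4 run chr1:60908775-60909024 (+), which lies inside an intron of a longer annotated Ctla4 transcript, the Pdcd1 run chr1:94052554-94052803 (-) and the Cd96 run chr16:46120249-46120498 (-).
Havcr2: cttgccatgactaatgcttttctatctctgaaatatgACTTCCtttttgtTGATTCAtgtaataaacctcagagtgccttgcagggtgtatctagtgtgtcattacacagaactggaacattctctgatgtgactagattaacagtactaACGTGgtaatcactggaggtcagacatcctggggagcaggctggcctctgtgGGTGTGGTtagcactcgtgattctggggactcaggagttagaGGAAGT
Ctla4: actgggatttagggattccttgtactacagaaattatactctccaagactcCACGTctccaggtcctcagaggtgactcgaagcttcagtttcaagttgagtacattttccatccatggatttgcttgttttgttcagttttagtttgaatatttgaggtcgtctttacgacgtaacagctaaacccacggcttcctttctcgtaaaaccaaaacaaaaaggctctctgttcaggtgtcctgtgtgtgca
Pdcd1: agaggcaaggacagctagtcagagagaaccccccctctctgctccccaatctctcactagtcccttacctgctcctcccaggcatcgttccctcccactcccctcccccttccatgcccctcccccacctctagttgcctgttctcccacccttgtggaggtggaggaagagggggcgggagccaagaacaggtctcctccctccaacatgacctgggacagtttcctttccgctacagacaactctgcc
Cd96: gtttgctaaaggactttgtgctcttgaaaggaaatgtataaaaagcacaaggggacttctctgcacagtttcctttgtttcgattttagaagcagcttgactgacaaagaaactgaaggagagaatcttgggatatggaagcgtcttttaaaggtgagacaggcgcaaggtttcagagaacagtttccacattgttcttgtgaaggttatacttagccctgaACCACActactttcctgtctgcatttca

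The Havcr2 run held 1 T-box, 2 ETS, 1 RUNX, 1 AP-1 and 1 HIF match, and its T-box and RUNX matches overlap. The Ctla4 run held 1 HIF match, the Cd96 run 1 RUNX match and the Pdcd1 run none of the 5. Of 32851 promoters of the same length, 16.3% held the T-box letters, 19.7% the ETS letters, 14.0% the RUNX letters, 6.75% the AP-1 letters and 16.6% the HIF letters. These matches are descriptions of letters, not of binding.

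Between 13287163 and 18875033 reads fell on genes in a library. Levels are given in CPM, the reads of a gene scaled to a common library size, with TMM factors set over all 37 libraries. The sort was visible in the RNA: Klrc1, which encodes NKG2A, was at 494 to 760 CPM in WT NKG2A+ cells and at 13.8 CPM or less in every other library, so the knockout itself could not be checked in cells gated as NKG2A-. Klra9, the Ly49I gene, was at 464 to 731 CPM in WT and 749 to 1136 CPM in NKG2A KO Ly49C/I+ cells, against 123 CPM or less elsewhere. Klra3, the Ly49C gene, was lower in Ly49C/I+ cells than in uneducated cells in both genotypes (log2 fold change -1.32 ± 0.26 (SE) in WT, edgeR adjusted p = 0.00559, and -0.64 ± 0.12 in NKG2A KO, adjusted p = 0.00291), although reads of these near-identical genes may be shared between them. The NK cell genes Ncr1 and Eomes were detected in all 37 libraries. Of the 11 T cell markers, Cd4 was at 0 in 35 libraries, Cd8a in 34 and Cd8b1 in 30, whereas Trbc1, Trbc2, Trac, Cd3g and Cd3d were counted in all 37. Of the B cell markers, Ms4a1 and Pax5 were at 0 in 35 and 37 libraries, whereas Cd79a and Cd79b were at 0 in 16 and 14 and reached 1.03 and 4.68 CPM. WT uneducated replicate 5, WT NKG2A+ replicate 9, WT Ly49C/I+ replicate 5 and NKG2A KO Ly49C/I+ replicate 5 had the fewest genes with a count, 13982 to 14197 against a median of 15879. In bulk RNA, a lower level in fewer cells and a lower level in each cell cannot be told apart.

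Per kilobase of exon, which allows levels of different genes to be compared, Ctla4 and Cd96 were the most abundant of the 9 transcripts over all libraries, at medians of 136 and 128 CPM per kb. Tigit followed at 65.9, Pvrig at 50.7, Pdcd1 at 31.3, Crtam at 20.6, Havcr2 at 11.0 and Cd226 at 8.57 CPM per kb. Lag3 was the least abundant at 0.921 CPM per kb and reached 5 CPM in 1 of 37 libraries, so it did not pass the filter of 5 CPM in at least a 0.5 share of the libraries. These medians pool groups whose levels differ. Havcr2 had means of 34.9 and 24.0 CPM per kb in WT and NKG2A KO uneducated cells and of 3.30 to 7.03 CPM per kb in the educated groups, and Pdcd1 ran from 18.98 CPM per kb in WT uneducated to 70.3 CPM per kb in NKG2A KO Ly49C/I+ cells. Over single libraries Havcr2 ran from 0 to 173 CPM, Pdcd1 from 0.336 to 228 CPM and Ctla4 from 203 to 528 CPM. In WT NKG2A+ cells, Cd226 stood at 21.9 CPM per kb, next to Crtam at 21.2, while in WT uneducated cells it stood at 4.18 CPM per kb, below every other member but Lag3.

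**Figure D1:**
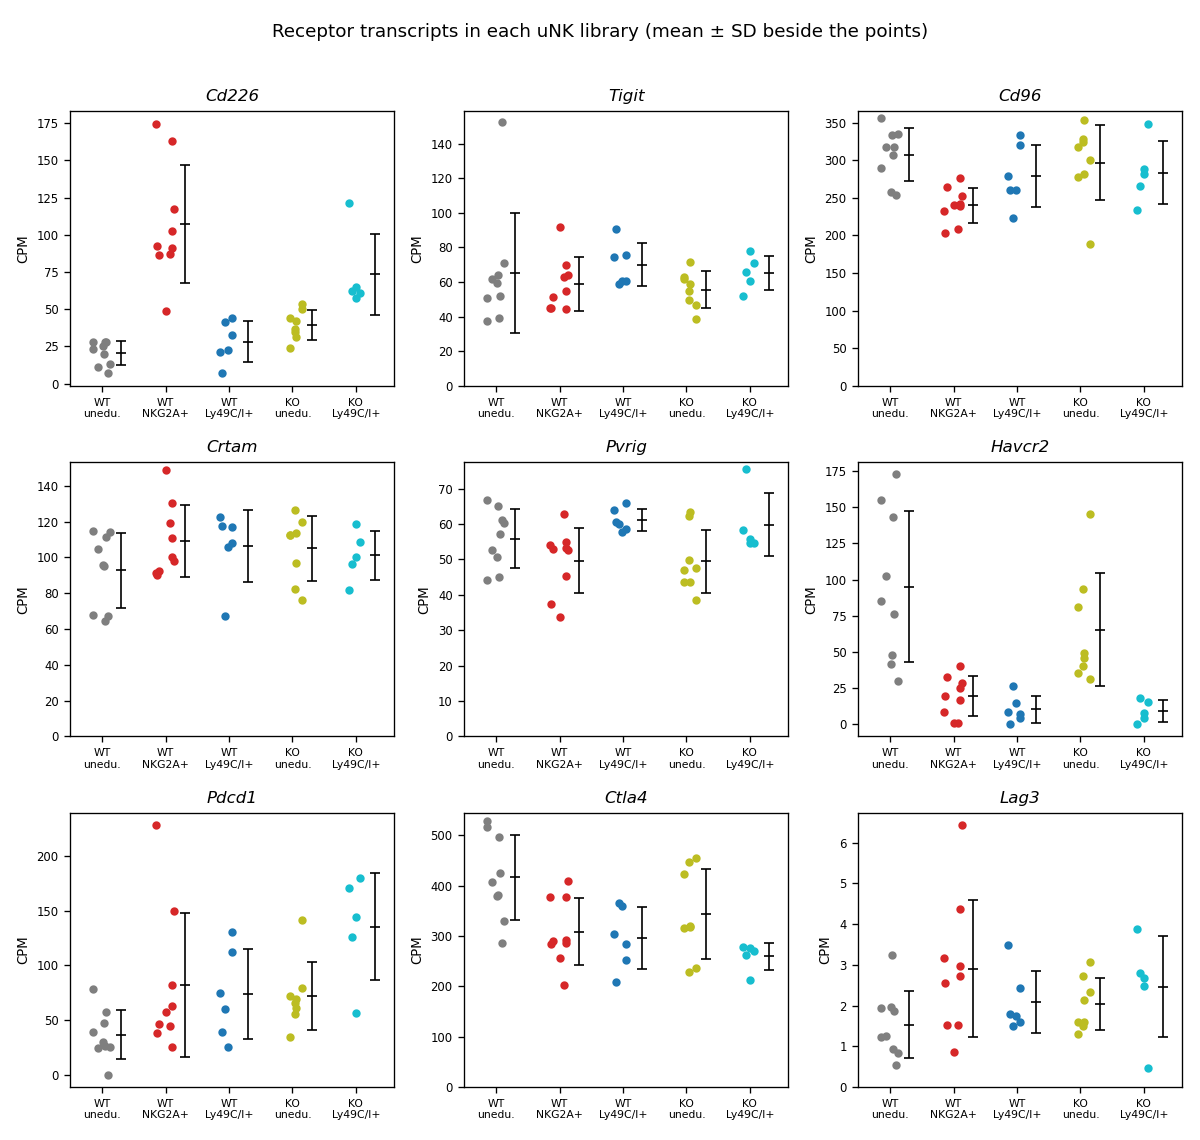
CPM of each receptor transcript (y axis, linear) in each of the 37 libraries (points), by group (x axis; unedu., uneducated), with the group mean and SD beside the points. Cd226 in WT NKG2A+ cells (49.0 to 174 CPM) lies above all WT uneducated libraries (7.33 to 28.1 CPM), and Havcr2 is highest in the uneducated groups of both genotypes.

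The first question was how the receptors differ between WT NKG2A+ cells and WT uneducated cells. Cd226 was about 5 times as abundant in NKG2A+ cells, and Havcr2, Cd96 and Ctla4 were lower. Of the 9 members, 8 passed the filter and 4 of these passed the test, 1 higher and 3 lower, by edgeR's quasi-likelihood test at an adjusted p under 0.05 over the 9339 genes tested. Of all genes tested, 15.0% were called, 7.47% higher and 7.56% lower.

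Cd226 (chr18:89176967-89272229, plus strand) had a lowest value of 7.33, a median of 23.4 and a highest value of 28.1 CPM in the 9 WT uneducated libraries. In the 9 WT NKG2A+ libraries it had a lowest value of 49.0, a median of 92.3 and a highest value of 174 CPM. The groups did not overlap, as was so for 2.10% of the genes tested. The mean was 20.4 ± 7.97 CPM (SD, n = 9) in uneducated cells and 107 ± 39.5 CPM (SD, n = 9) in NKG2A+ cells. On the log2 scale Cd226 rose by 2.39 ± 0.26 (SE, edgeR adjusted p = 2.77e-06). The call held when any library was left out. Markers of a type 1 innate lymphoid cell (ILC1) list were also higher in NKG2A+ cells: 5 of its 7 genes rose, Itga1 fell and Tnfsf10 did not pass the test. Among them Cxcr6, a chemokine receptor gene, rose by 2.86 ± 0.38 on the log2 scale (adjusted p = 2.68e-05). The summed level of the list was 267 to 680 CPM in NKG2A+ cells and 232 to 416 CPM in uneducated cells, and its part in the Cd226 result was not tested. Of the 6 T cell markers that passed the filter, Cd3d, Cd3e, Trbc1 and Trbc2 rose, with a summed level of the 11 markers of 605 to 846 CPM against 441 to 617 CPM. Itgam, the CD11b gene and a marker of the myeloid list, was at 31.6 to 62.7 CPM in NKG2A+ cells and 14.1 to 35.9 CPM in uneducated cells and rose by 1.08 ± 0.19 (adjusted p = 0.000538). The other 2 myeloid markers tested were not called. The part of the T cell and myeloid markers was not tested either.

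Of the genes of the other nectin and nectin-like receptors, Cd96 was called lower and Tigit, Crtam and Pvrig did not pass the test. Cd96 was at 253, 317 and 357 CPM (lowest, median, highest) in WT uneducated cells and at 203, 241 and 277 CPM in WT NKG2A+ cells. These ranges overlapped, and Cd96 fell by 0.35 ± 0.08 on the log2 scale (SE, adjusted p = 0.00417). Tigit was at 37.5, 59.2 and 153 CPM in uneducated cells and at 44.4, 54.8 and 92.0 CPM in NKG2A+ cells. Its log2 fold change of -0.14 ± 0.22 (adjusted p = 0.724) did not pass the test. The 153 CPM belonged to uneducated replicate 5, and without that library the value was 0.12 (adjusted p = 0.667). Crtam, at 64.6 to 115 CPM in uneducated cells and 90.3 to 149 CPM in NKG2A+ cells, had a log2 fold change of 0.24 ± 0.14 (adjusted p = 0.273). Pvrig, at 44.2 to 66.7 CPM and 33.7 to 62.8 CPM, had a log2 fold change of -0.17 ± 0.13 (adjusted p = 0.409). Neither passed the test.

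A ratio of reads within a library does not depend on how libraries are scaled to each other. For every Tigit read there was a median of 0.427 Cd226 reads in WT uneducated cells (range 0.048 to 0.746), 1.84 in WT NKG2A+ cells (0.532 to 3.88) and 0.457 in WT Ly49C/I+ cells (0.0755 to 0.698). The lowest NKG2A+ library, replicate 9, overlapped the other WT groups, and the remaining 8 did not. The ratio was 0.678 (0.376 to 1.38) in NKG2A KO uneducated and 0.943 (0.737 to 2.35) in NKG2A KO Ly49C/I+ cells, which overlapped. For every Cd96 read there were 0.203 to 0.750 Cd226 reads in WT NKG2A+ cells, above 0.0289 to 0.0982 in uneducated and 0.0263 to 0.185 in Ly49C/I+ WT cells, with no overlap. Over the 37 libraries, after the mean of each group was taken off, log2(CPM + 1) of Cd226 and Tigit had a Pearson r of -0.67, the lowest of the 36 member pairs, and Cd226 and Pdcd1 had the highest at 0.60. These values describe libraries that differ in the number of genes detected and carry no test.

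**Figure D2:**
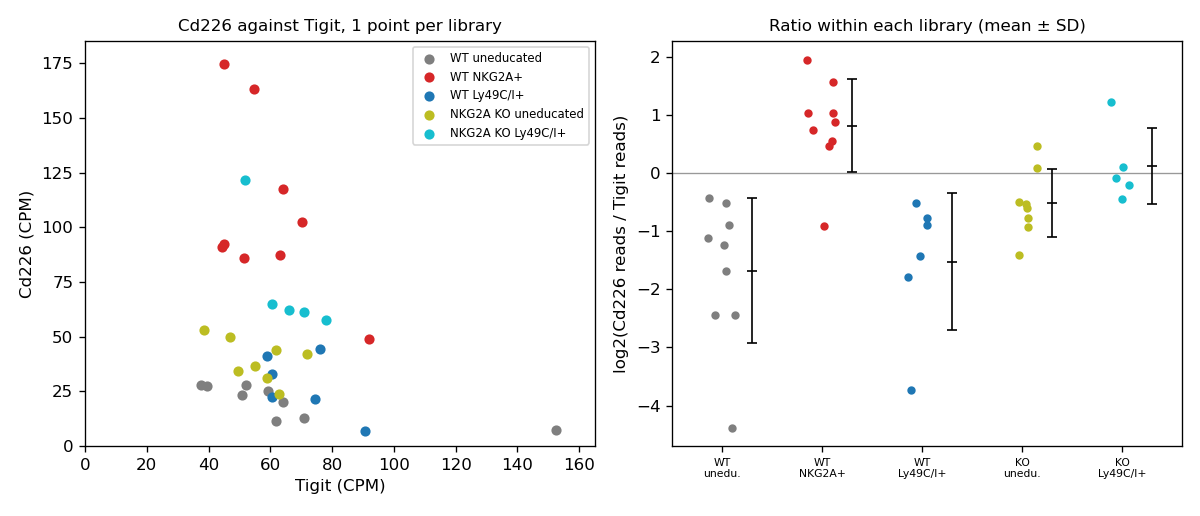
Left, Cd226 against Tigit (both CPM), with 1 point for each library, coloured by group. Right, the log2 ratio of Cd226 to Tigit reads within each library by group, with mean and SD. Of the 9 WT NKG2A+ libraries, 8 lie above a log2 ratio of 0, and all WT uneducated libraries lie below it (-4.38 to -0.42).

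Among the checkpoint receptors, Havcr2 differed most between WT NKG2A+ and uneducated cells. It was at 29.9, 85.4 and 173 CPM (lowest, median, highest) in uneducated cells and at 0.365, 19.2 and 40.1 CPM in NKG2A+ cells. Only 2 NKG2A+ libraries, replicates 7 and 8, exceeded the lowest uneducated library. Havcr2 fell by 2.30 ± 0.55 on the log2 scale (SE, adjusted p = 0.00594), and the call held when any library was left out. Other genes fell beside it. Pecam1, an endothelial marker that NK cells also express, was at 219 to 343 CPM in uneducated cells and at 122 to 201 CPM in NKG2A+ cells, and the epithelial marker Epcam was at 46.3 to 94.5 CPM and 19.0 to 43.1 CPM. The other endothelial markers, Cdh5 and Kdr, were at 0 in 31 and 32 of the 37 libraries, and the other epithelial marker, Krt8, was at 0 in 16. Of the 7 NK cell markers, the perforin gene Prf1 and the granzyme gene Gzmb fell, by 0.69 ± 0.12 and 0.68 ± 0.11, while Ncr1, Klrb1c, Klrk1 and Itga2 rose. The part of these genes in the Havcr2 result was not tested. Ctla4 was at 286, 407 and 528 CPM in uneducated cells and at 203, 289 and 410 CPM in NKG2A+ cells, with broad overlap, and fell by 0.43 ± 0.13 (adjusted p = 0.0296). The Ctla4 call was lost without any of uneducated replicates 1, 3 and 4 and NKG2A+ replicates 2, 5, 6 and 9 (adjusted p up to 0.0643), and without the filter on low values (adjusted p = 0.0765). Pdcd1 was at 0.336, 29.9 and 78.7 CPM in uneducated cells and at 25.8, 57.8 and 228 CPM in NKG2A+ cells. Its log2 fold change of 1.16 ± 0.50 (adjusted p = 0.122) did not pass the test. The 0.336 CPM again belonged to uneducated replicate 5. Without the libraries numbered 5 of both groups the value was 1.09 (adjusted p = 0.0466). Lag3, at 0.538 to 3.25 CPM in uneducated and 0.865 to 6.44 CPM in NKG2A+ cells, could be tested only without the filter on low values (log2 fold change 0.91 ± 0.48, adjusted p = 0.263).

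The second question was whether WT Ly49C/I+ cells, educated through the other receptor, differ from the same uneducated cells. Havcr2 and Ctla4 were lower and no member was higher. These 2 of 8 tested members compare with 9.30% of the 9292 genes tested, 4.25% higher and 5.05% lower. Havcr2 was at 0, 7.88 and 26.4 CPM (lowest, median, highest) in the 6 WT Ly49C/I+ libraries, all below the lowest uneducated library at 29.9 CPM, as was so for 1.19% of genes (groups apart and lower). It fell by 3.24 ± 0.65 on the log2 scale (SE, adjusted p = 0.00571), and the library at 0 was replicate 5. The call held when any library was left out. Pecam1 (142 to 218 CPM) and Epcam (25.3 to 41.9 CPM) were again below every uneducated library, and Prf1 and Gzmb fell by 0.71 ± 0.14 and 0.58 ± 0.13. Of the 5 T cell markers tested, Trbc1 (0.53 ± 0.10) and Trbc2 (0.36 ± 0.11) rose, and the summed level of the T cell list, 634 to 838 CPM against 441 to 617 CPM, did not overlap. The NK cell marker Klrk1 rose as well (0.49 ± 0.12). The part of these genes in the result was not tested. Ctla4, at 208, 294 and 366 CPM, fell by 0.50 ± 0.15 (adjusted p = 0.038). That call was lost without any of uneducated replicates 1, 2, 3, 4 and 8 and Ly49C/I+ replicates 4, 5, 7 and 8, with offsets for GC content and gene length (-0.36, adjusted p = 0.131) and without the filter on low values (-0.51, adjusted p = 0.103).

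Cd226 in WT Ly49C/I+ cells was at 6.85, 27.7 and 44.2 CPM, overlapping uneducated cells. Its mean of 28.2 ± 14.0 CPM (SD, n = 6) gave a log2 fold change of 0.45 ± 0.35 (SE, adjusted p = 0.46). The lowest value came from replicate 5, the library with no Havcr2 read. Pdcd1 was at 25.5, 67.6 and 131 CPM (log2 fold change 1.00 ± 0.54, adjusted p = 0.258). Tigit at 58.9 to 90.7 CPM, Cd96 at 223 to 333 CPM, Crtam at 67.3 to 122 CPM and Pvrig at 57.7 to 66.0 CPM all overlapped uneducated cells, with log2 fold changes of -0.15 to 0.19 and adjusted p of 0.406 to 0.863. None of the 4 passed the test. Lag3 was at 1.49 to 3.50 CPM.

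The educated WT populations were then compared with each other, without the shared uneducated cells. Cd226 differed, with more in NKG2A+ cells, and was the 1 of 8 tested members called, where 2.73% of 9308 genes were called and 1.31% were called higher. Every NKG2A+ library (49.0 CPM or more) lay above every Ly49C/I+ library (44.2 CPM or less), as was so for 0.505% of genes (groups apart and higher). The log2 fold change was 1.93 ± 0.33 (SE, adjusted p = 0.00444). The call held when any library was left out. No T cell marker was called, and 4 of the 7 ILC1 list genes tested were not. The other ILC1 list genes, Cxcr6, Tmem176a and Tmem176b, rose beside Cd226, by 2.14 ± 0.45, 3.20 ± 0.37 and 3.05 ± 0.38. Their part was not tested. Havcr2, Ctla4 and Pdcd1 had log2 fold changes of 0.92 ± 0.83, 0.06 ± 0.14 and 0.15 ± 0.43 (adjusted p = 0.598, 0.872 and 0.899), so a difference between the educated populations was not detected for these genes. Cd96 (-0.22 ± 0.09) and Pvrig (-0.30 ± 0.13) had adjusted p of 0.2 and 0.207. Tigit (-0.25 ± 0.16) and Crtam (0.04 ± 0.14) did not pass the test either.

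**Figure D3:**
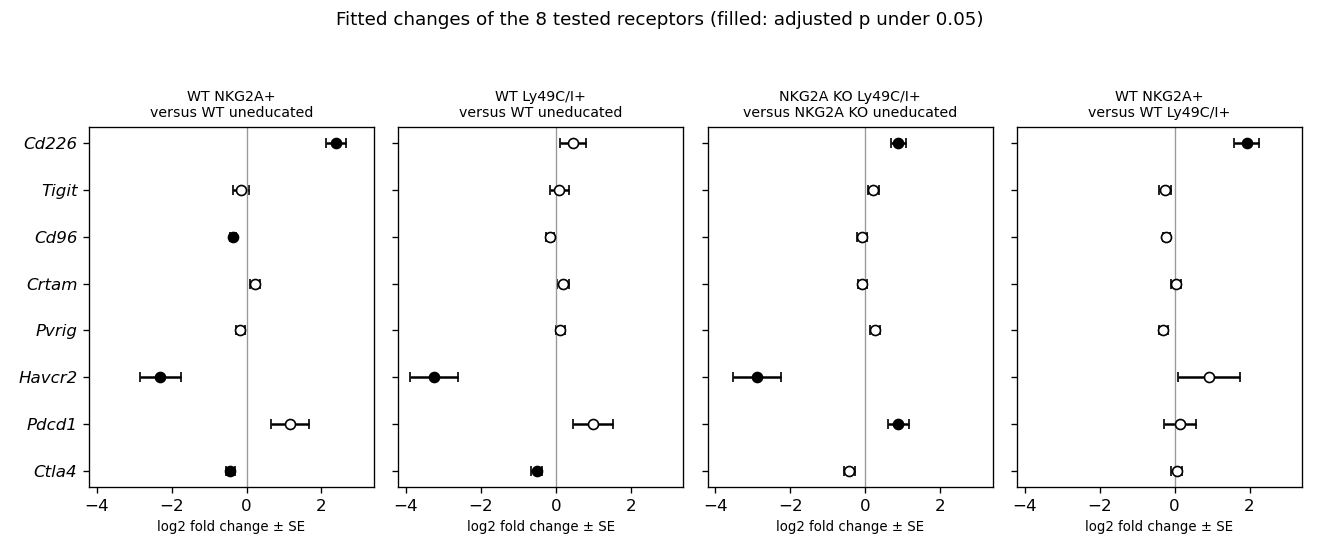
Log2 fold change (x axis, with SE) of the 8 receptors that passed the filter (y axis) in 4 comparisons, from edgeR. Filled points passed the adjusted p threshold of 0.05. Cd226 is filled in 3 panels and Havcr2 in the 3 panels against uneducated cells, at -2.30, -3.24 and -2.88.

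In NKG2A KO mice, whose libraries enter no WT comparison, Ly49C/I+ cells were set against uneducated cells. Havcr2 was lower and Cd226 and Pdcd1 were higher. These 3 of 8 tested members compare with 16.3% of 9299 genes called, 7.34% higher and 8.99% lower. Havcr2 was at 0.108, 15.4, 3.86, 18.1 and 7.48 CPM in Ly49C/I+ replicates 4 to 8, against 31.3, 47.5 and 145 CPM (lowest, median, highest) in the 8 uneducated libraries. It fell by 2.88 ± 0.64 on the log2 scale (SE, adjusted p = 0.00604). Cd226 was at 122, 61.2, 64.8, 62.1 and 57.4 CPM in Ly49C/I+ replicates 4 to 8, against 23.6, 39.1 and 53.1 CPM in uneducated cells. It rose by 0.88 ± 0.21 (adjusted p = 0.00864). Havcr2 and Cd226 showed no overlap between the groups, as was so for 5.99% of genes, and both calls held when any library was left out. Replicate 4, the highest for Cd226, was the lowest for Havcr2, and without it the Cd226 value was 0.62 ± 0.18 (adjusted p = 0.0403). Of 5 ILC1 list genes tested only Tnfsf10 was called (0.72 ± 0.14), and of 5 T cell markers tested only Trbc1 (0.52 ± 0.09). Of 3 myeloid markers tested only Itgam was called (0.87 ± 0.21), and the median of the tested myeloid markers was -0.23. Epcam fell by 1.31 ± 0.25. Of the 7 NK cell markers Ncr1, Klrb1c, Klrk1 and Itga2 rose, by 0.33 to 0.93, and Prf1 and Gzmb fell by 0.46 ± 0.14 and 0.33 ± 0.10. Their part in these results was not tested.

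Pdcd1 was at 170, 180, 144, 126 and 56.8 CPM in NKG2A KO Ly49C/I+ replicates 4 to 8, against 34.6, 67.2 and 142 CPM in NKG2A KO uneducated cells, with overlap, and rose by 0.89 ± 0.27 on the log2 scale (SE, adjusted p = 0.0348). Of the 13 libraries, this call remained only without uneducated replicates 3 or 4 or Ly49C/I+ replicate 8. It was lost when any of the other 10 was left out (adjusted p up to 0.096), without the filter on low values (adjusted p = 0.0896) and with all 5 groups in 1 fit (adjusted p = 0.238). Ctla4 was at 213 to 278 CPM in Ly49C/I+ and 229 to 455 CPM in uneducated cells (log2 fold change -0.42 ± 0.16, adjusted p = 0.0766) and did not pass the test. It passed without uneducated replicate 4 (adjusted p = 0.0307) or replicate 6 (adjusted p = 0.0324), and by DESeq2 (adjusted p = 0.0357). Tigit (51.8 to 78.0 against 38.4 to 71.8 CPM), Cd96 (234 to 348 against 189 to 353 CPM), Crtam (81.7 to 118 against 75.9 to 127 CPM) and Pvrig (54.7 to 75.4 against 38.5 to 63.3 CPM) overlapped and did not pass the test, with log2 fold changes of -0.08 to 0.26. Pvrig passed with offsets for GC content and gene length (0.43, adjusted p = 0.0447). Lag3 was at 0.466 to 3.89 against 1.30 to 3.06 CPM.

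NKG2A KO and WT libraries were then compared within each sort gate. Without NKG2A, cells that in WT mice would be sorted as NKG2A+, or as having both receptors, may fall into the KO gates. An effect of the genotype and a difference in the cells gated therefore cannot be told apart. This also holds for the interaction below. No member was called in uneducated cells by edgeR's quasi-likelihood test, where 0 of 9288 genes were called. At an unadjusted p under 0.05, 2 members and 619 genes (6.66%) passed, and a likelihood ratio test and DESeq2 each called 1 gene that was no member. The 2 members were Cd226 (39.3 ± 9.84 CPM in NKG2A KO against 20.4 ± 7.97 CPM in WT, log2 fold change 0.95 ± 0.24, edgeR adjusted p = 0.507) and Pdcd1 (0.98 ± 0.45, adjusted p = 0.735). Cd226 ranges overlapped between 23.6 and 28.1 CPM. Havcr2 (-0.54 ± 0.35) and Ctla4 (-0.28 ± 0.15) had adjusted p of 0.827 and 0.805.

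In Ly49C/I+ cells, no member and 0 of 9344 genes were called between NKG2A KO and WT by the quasi-likelihood test, while 2 members and 1001 genes (10.7%) passed at an unadjusted p under 0.05. Cd226 was 57.4 CPM or more in all 5 NKG2A KO and 44.2 CPM or less in all 6 WT libraries, as was so for 0.867% of genes (groups apart and higher). Its log2 fold change was 1.38 ± 0.36 (SE, edgeR adjusted p = 0.208). A likelihood ratio test (62 genes called) and DESeq2 (118 genes called) both called Cd226, with adjusted p of 0.0347 and 0.0132, and no other member. Pdcd1 had 0.88 ± 0.37 (adjusted p = 0.44), Ctla4 -0.19 ± 0.14 (adjusted p = 0.659) and Havcr2 -0.17 ± 1.00 (adjusted p = 0.969).

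The difference between the genotypes in the change from uneducated to Ly49C/I+ cells was tested as an interaction. No member and 0 of 9322 genes were called by the quasi-likelihood test, and no member and 414 genes (4.44%) passed at an unadjusted p under 0.05. A likelihood ratio test called 0 genes and DESeq2 1 gene, not a member. For Cd226 the interaction was 0.42 ± 0.44 on the log2 scale (SE, adjusted p = 0.998), so its call in NKG2A KO and not in WT Ly49C/I+ cells does not show that the changes differ.

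In order of mean level, Cd226 was lowest in WT uneducated cells (20.4 CPM), followed by WT Ly49C/I+ (28.2), NKG2A KO uneducated (39.3), NKG2A KO Ly49C/I+ (73.4) and WT NKG2A+ cells (107 CPM). Of neighbours in this order, the ranges overlapped except between the KO populations. Havcr2 was highest in WT uneducated (95.0 CPM) and NKG2A KO uneducated cells (65.3 CPM) and was at 19.1, 10.1 and 9.0 CPM in WT NKG2A+, WT Ly49C/I+ and NKG2A KO Ly49C/I+ cells. Within the uneducated and within the educated populations its ranges overlapped. Mean Ctla4 was at 416 and 343 CPM in the uneducated groups and 308, 296 and 259 CPM in the educated ones. Its NKG2A KO uneducated libraries (229 to 455 CPM) overlapped each educated group. The Ctla4 change in NKG2A KO cells did not pass the test, and both WT calls were lost when some single libraries were left out. Pdcd1 was lowest in WT uneducated (36.6 CPM) and highest in NKG2A KO Ly49C/I+ cells (136 CPM), with the other 3 groups between 72.3 and 81.9 CPM. Group means ran from 55.7 to 70.1 CPM for Tigit, 240 to 308 CPM for Cd96, 92.8 to 109 CPM for Crtam, 49.5 to 61.2 CPM for Pvrig and 1.53 to 2.91 CPM for Lag3.

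The genes of the ligands were mostly low in these cells. Counts in this and the following lists stand beside the share of all genes called against uneducated cells. That share was 15.0% in WT NKG2A+, 9.30% in WT Ly49C/I+ and 16.3% in NKG2A KO Ly49C/I+ cells. Of 15 ligand genes, 7 passed the filter in the comparison of WT NKG2A+ with uneducated cells, where 2 rose, 1 fell and 4 did not pass (median log2 fold change 0.37, against 0.01 over all genes). Pvr was at group means of 4.0 to 5.8 CPM, and Nectin1, Nectin2, Nectin3, Nectin4 and Fgl1 were at 1.7 CPM or less. Cd274, which encodes PD-L1, rose by 0.63 ± 0.17 on the log2 scale (SE, adjusted p = 0.016), and Lgals9, which encodes galectin-9, by 0.39 ± 0.09 (adjusted p = 0.0065). Lgals3, the galectin-3 gene, fell by 1.22 ± 0.12 (adjusted p = 1.3e-06). In WT Ly49C/I+ cells 1 of 6 rose (Cd274, 0.71 ± 0.21) and 2 fell (Lgals3 and Hmgb1). In NKG2A KO Ly49C/I+ cells 0 of 7 rose and 2 fell (Lgals3 and Hmgb1).

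Of 11 partner and signalling genes of the nectin-binding receptors, 3 rose and none fell in WT NKG2A+ cells (median 0.19, against 0.01 over all genes). They were Itgal (0.44 ± 0.12) and Itgb2 (0.51 ± 0.11), the LFA-1 subunit genes, and the kinase gene Fyn (0.46 ± 0.12), with adjusted p of 0.0137, 0.00308 and 0.0115. In WT Ly49C/I+ cells 2 rose and 1 fell: the phosphatase gene Inpp5d and Arrb2 rose and the phosphatase gene Ptpn11 fell. In NKG2A KO Ly49C/I+ cells 3 rose, Itgal (0.32 ± 0.09), Itgb2 (0.32 ± 0.10) and Inpp5d (0.34 ± 0.10). Vav1, Grb2, Plcg2, Prkca and Ptpn6 did not pass the test in these 3 comparisons.

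Of 13 other checkpoint and costimulatory genes, 10 passed the filter in WT NKG2A+ against uneducated cells, where 5 rose, 2 fell and 3 did not pass (median 0.43, against 0.01 over all genes). Cd160 (1.16 ± 0.17), Cd27 (1.09 ± 0.25), Tnfrsf18 (0.51 ± 0.12), Adora2a (0.85 ± 0.20) and Cd200r1 (3.29 ± 0.62), which is also in the ILC1 list, rose, while Tnfrsf9, which encodes 4-1BB, fell by 0.82 ± 0.10 and Entpd1 by 0.50 ± 0.13. In WT Ly49C/I+ cells 2 of 9 rose (Cd160, 0.81 ± 0.19, and Tnfrsf18, 0.46 ± 0.14) and Tnfrsf9 fell by 0.57 ± 0.12. In NKG2A KO Ly49C/I+ cells the same 3 genes were called in the same directions, Cd160 at 0.58 ± 0.13, Tnfrsf18 at 0.29 ± 0.10 and Tnfrsf9 at -0.69 ± 0.14. Cd28 and Icos, receptors of the same family as Ctla4, did not pass the test in any of these comparisons. Of 12 transcription factor genes, 10 passed the filter. In WT NKG2A+ cells Tbx21 (T-bet, 0.45 ± 0.14), Nr4a1 (0.45 ± 0.13) and Nfatc1 (0.59 ± 0.11) rose and Batf fell by 0.44 ± 0.11. Tbx21 was the 1 gene of the list called in WT Ly49C/I+ cells (0.52 ± 0.16) and in NKG2A KO Ly49C/I+ cells (0.44 ± 0.09).

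Genes with the most similar pattern over the 37 libraries were found by the Pearson r of log2(CPM + 1), as a description. For Havcr2 they were Epas1, which encodes a hypoxia-inducible factor (0.94), and the granzyme genes Gzmd (0.89) and Gzme (0.89), whose reads may be shared with near-identical granzyme genes. With group means taken off, the r was 0.86, 0.78 and 0.77. Mean Epas1 was 69.7 ± 43.9 CPM in WT uneducated and 13.4 ± 8.62 CPM in WT NKG2A+ cells (SD, n = 9 each). For Cd226 they were Tcrg-C4 (0.86), Ncr1, the NKp46 gene (0.85), and Gna15 (0.84), and these fell to 0.62, 0.49 and 0.46 within groups. Tcrg-C4 was at 55.7 ± 31.8 CPM in WT NKG2A+ cells and 4.46 ± 3.36 CPM in WT uneducated cells (SD, n = 9 each). For Ctla4 they included Pdia3 (0.84) and Calr (0.81), for Pdcd1 they were Dusp7, Armc7 and Prickle3 (0.83 to 0.79), for Tigit Sh2d2a, Myl12b and BC005624 (0.81 to 0.77), and for Cd96 Ctsd, Mrpl41 and Copz2 (0.76 to 0.68). The nearest genes to Crtam (Zfp683, 0.66) and Pvrig (Ctla2a, 0.66) had lower values. No member was among the 3 nearest genes of another.

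**Figure D4:**
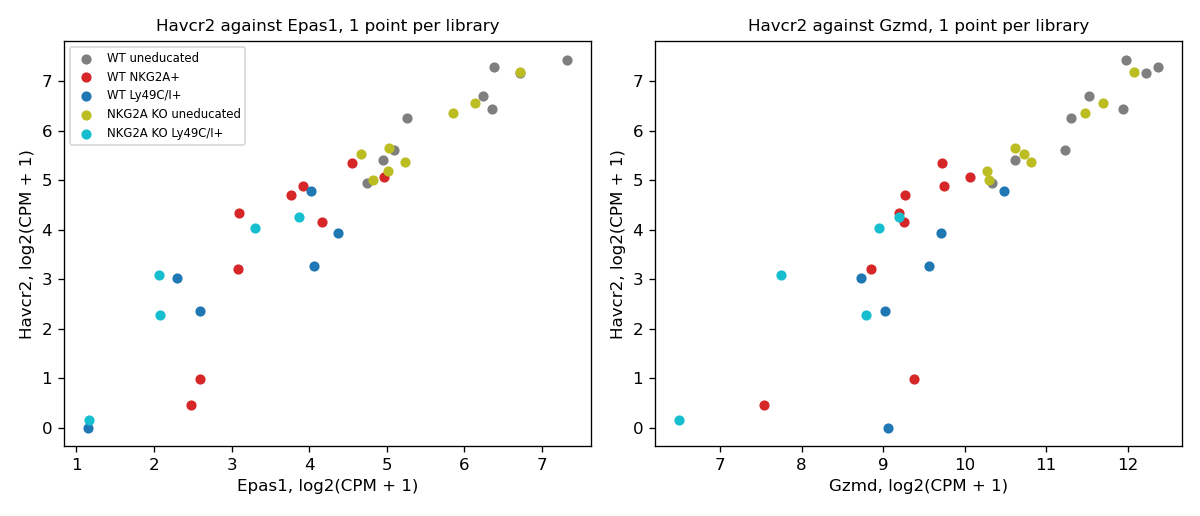
Havcr2 (y axis) against Epas1 (left) and Gzmd (right), all as log2(CPM + 1), with 1 point for each of the 37 libraries, coloured by group. Libraries of uneducated cells of both genotypes lie at the upper right, and the Pearson r over all points is 0.94 for Epas1 and 0.89 for Gzmd.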

How the data were processed

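RNA of sorted uNK cells was extracted with the RNeasy Micro kit, amplified with SMART-Seq v4 and made into libraries with Nextera XT from 125 pg of cDNA. According to the submitters' processing notes, reads were trimmed with Trim Galore 0.5.0, checked with FastQC 0.11.4, aligned to GRCm38 with STAR 2.7.1 and analysed with edgeR 3.26.5 in R 3.6.1. Reads were counted per gene with a program and strand setting not given in the sources used here. The authors deposited whole-number counts per Ensembl gene, 1 file for each library. The 5 summary lines in each file, 18.9% to 23.6% of its counts, were left out. Identifiers were matched to GENCODE M21 symbols (52147 of 53700). Each of the 7 comparisons was fitted on its own groups with edgeR 4.0.16 in R 4.3.3 (TMM factors, quasi-likelihood test, Benjamini-Hochberg adjustment over all genes tested), after a filter of at least 5 CPM in at least a 0.5 share of the libraries. The study's quantile normalization for GC content and length was not rerun. Least-squares spline offsets for GC content and length, with 5 degrees of freedom, were tried in its place, beside DESeq2 1.42.0. Fits were tested on simulated data. Named genes were the 9 members, the sorted receptors, the fixed lists and, for each member at a median of 5 CPM or more, the 3 genes with the highest r. A few genes that this rule or the marker lists name are not reported here. The members and lists were chosen with earlier results of these data known. Comparisons with the same uneducated group share those libraries. Depth of 13287163 to 18875033 reads per library limits genes at a few CPM. Replicate numbers of WT Ly49C/I+ libraries follow the library names. No 2 libraries of a group agreed within sampling noise (chi-square per degree of freedom 25.7 or more).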

Additional observations from a re-analysis of the deposited data

Results flagged for a closer look

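Of 45 values of a receptor in a group, 7 had 1 library far from the others of its group, by a gap test that flags about 1 in 20 groups by chance. Cd226 was at 122 CPM in NKG2A KO Ly49C/I+ replicate 4, and the next library was at 64.8 CPM. Tigit was at 153 CPM in WT uneducated replicate 5, with the next at 70.8 CPM. Cd96 was at 189 CPM in NKG2A KO uneducated replicate 4, and the next lowest was at 278 CPM. Crtam was at 67.3 CPM in WT Ly49C/I+ replicate 1, below the next at 105 CPM. Pvrig was at 75.4 CPM in NKG2A KO Ly49C/I+ replicate 7, above the next at 58.4 CPM. Pdcd1 was at 142 CPM in NKG2A KO uneducated replicate 3, above the next at 79.1 CPM. Ctla4 was at 213 CPM in NKG2A KO Ly49C/I+ replicate 6, below the next at 262 CPM.

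In WT cells, Cd226 differed between the NKG2A+ and the Ly49C/I+ populations. The difference, which the direct comparison of the educated groups tests, was 1.93 on the log2 scale (edgeR adjusted p = 0.00444), and each of the 9 NKG2A+ libraries was above each of the 6 Ly49C/I+ libraries.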

How the results depend on the processing

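Over the alternatives and leave-outs, 1213 of 1317 values were classed as unchanged. For a fold change this means the same direction and side of the threshold. For a count of genes or members called, the class is wide and allows a count that differs from that in the report. In WT NKG2A+ against uneducated cells, alternatives with 1025 to 1754 genes were all classed as unchanged from 1404. In WT Ly49C/I+ against uneducated cells (864 genes and 2 members in the report), 451 genes and 1 member were called without the filter, 1 member with GC content and length offsets and 1528 genes with all 5 groups in 1 fit. Leaving out single libraries gave 461 to 1234 genes and 1 to 2 members. The gene count moved without WT uneducated replicates 1, 3 or 4 or Ly49C/I+ replicates 5 or 7. In WT NKG2A+ against Ly49C/I+ cells (254 genes), the likelihood ratio test called 442, DESeq2 558 and the unfiltered fit 104, and leaving out 1 library gave 147 to 306 (moved by NKG2A+ replicates 2 and 8 and Ly49C/I+ replicates 2, 5 and 7). In NKG2A KO Ly49C/I+ against uneducated cells (1519 genes), 889 were called without the filter and 967 to 1763 without 1 library, the lowest without Ly49C/I+ replicate 4. Between genotypes (0 genes in each comparison), the likelihood ratio test and DESeq2 each called 1 gene in uneducated cells. In Ly49C/I+ cells they called 62 and 118 genes with 1 member each, all 5 groups in 1 fit called 18, and leaving out 1 library gave 0 to 15. DESeq2 called 1 gene in the interaction. The cause of these shifts was not tested.

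Values that did not pass the test changed sign as follows. Tigit in WT NKG2A+ against uneducated cells was 0.0166 with GC content and length offsets and 0.16 without the libraries numbered 5, and ranged from -0.26 to 0.12 without 1 library. Cd96 in NKG2A KO Ly49C/I+ against uneducated cells was 0.0627 with the offsets. In WT NKG2A+ against Ly49C/I+ cells, Crtam was -0.0229 and Ctla4 -0.092 with the offsets, and without 1 library Crtam ranged from -0.065 to 0.0823, Pdcd1 from -0.22 to 0.39 and Ctla4 from -0.0226 to 0.13. Havcr2 between genotypes in Ly49C/I+ cells ranged from -0.61 to 0.38 without 1 library.

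Replicate numbers are shared between groups, but the labels do not say whether a number marks the same animal or pool, so the block is given here alone. For the correlations, the group mean of each gene was first taken off log2(CPM + 1). What remained correlated at -0.02 to 0.26 between same-numbered libraries, and not every pair exceeded 0.1. With a replicate block, 768 genes were called in NKG2A KO Ly49C/I+ against uneducated cells, and 656 with offsets as well, where Cd226 was 0.55 (adjusted p = 0.0856). Pdcd1 in that comparison was 1.06 with the block (adjusted p = 0.00258) and 1.18 with offsets as well (adjusted p = 0.00233). Against WT uneducated cells, Ctla4 with the block was -0.43 in WT NKG2A+ (adjusted p = 0.00177) and -0.50 in WT Ly49C/I+ cells (adjusted p = 0.0105). With offsets as well these were -0.43 (adjusted p = 0.00572) and -0.32 (adjusted p = 0.0588). In NKG2A KO Ly49C/I+ against uneducated cells, Ctla4 was -0.14 with the block (adjusted p = 0.379) and -0.0889 with offsets as well (adjusted p = 0.583). With block and offsets, 1 member was called in WT Ly49C/I+ against uneducated cells, where Cd96 was 0.0145, Tigit in WT NKG2A+ against uneducated cells was 0.0609 and Cd96 in NKG2A KO cells was 0.0923. In WT NKG2A+ against Ly49C/I+ cells, block values were -0.0207 for Crtam and -0.15 for Pdcd1, and with offsets -0.10, -0.0601 and -0.0189 for Crtam, Pdcd1 and Ctla4. Every one of the 6 pairs in that comparison correlated best with its own number. Against uneducated cells, so did 4 of 9 pairs for WT NKG2A+, 5 of 6 for WT Ly49C/I+ and 3 of 5 for NKG2A KO Ly49C/I+ cells. The p-values outside this paragraph do not take such a pairing into account.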
